A study of Drosophila melanogaster with 4 samples.

Results

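The enriched regions of dMi-2 on chromosome arm 2L of Drosophila melanogaster were examined in wild-type Oregon-R-modENCODE embryos aged 14 to 16 h, profiled by chromatin immunoprecipitation and sequencing (ChIP-seq) with the antibody Q4443. Each list gives regions with a score on a scale that is the authors' own. The members are the lines on 2L of 3 deposited lists whose midpoint does not fall in the last 1 Mb by the centromere, in coordinates of FlyBase release 5. They number 1624 of the 9388 regions of the combined list (17.3%), 688 of the 4213 regions of the ChIP replicate 1 list (16.3%) and 883 of the 5359 regions of the ChIP replicate 2 list (16.5%). At the bound, the last combined-list region inside was at 21970134 to 21971512 with a score of 0.252, and the first outside was at 22017860 to 22020564 with a score of 0.495. The series has 4 libraries from whole embryos of the same strain and stage, 2 of ChIP and 2 of input, with 1 input for each ChIP replicate. Whether the replicates are separate embryo collections is not in the labels, and their spread may be technical.

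dMi-2 is the Drosophila member of the Mi-2 (CHD4) group of ATP-dependent nucleosome remodellers. It is the motor subunit of the NuRD complex, which joins remodelling to histone deacetylation, and of the smaller dMec complex with the zinc-finger protein MEP-1. In flies it has been linked both to the silencing of developmental genes and to active chromatin, including heat shock genes during transcription. Arm 2L is the left arm of the second chromosome. Its distal end is the telomere, at the first base of the sequence, and its base passes into heterochromatin next to the centromere. In whole embryos a region sums over many cell types, so a region bound in few cells and a region bound weakly in many cannot be told apart.

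Arm 2L carried fewer dMi-2 regions than the other long arms in each list. In the combined list it held 73.8 regions per Mb, against 81.9 per Mb on 2R, 3L, 3R and X together, each without the 1 Mb next to its centromere, a ratio of 0.901. In replicate 1 the densities were 31.3 per Mb on 2L and 37.5 per Mb on the other arms, and in replicate 2 they were 40.1 and 47.5 per Mb, giving ratios of 0.833 and 0.844. Arm by arm, 2L was the sparsest of the 5 in each list. The next lowest arm was 3R in the combined list with 77.6 per Mb, X in replicate 1 with 34.7 per Mb and 3R in replicate 2 with 44.9 per Mb. Covered sequence showed the same order of 2L and the rest, with 19.0% of 2L covered by combined-list regions against 22.4% of the other arms, 7.09% against 8.68% in replicate 1 and 10.2% against 12.5% in replicate 2. Regions of 1 list are not replicates, so these differences are descriptions and were not tested.

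The shortfall lay mainly between 11 and 18 Mb from the distal end. Taken as a whole, the distal 11 Mb of 2L held as many regions as the other arms have on average: 82.3 per Mb in the combined list, a ratio of 1.01, 37.5 per Mb in replicate 1, a ratio of 1.00, and 47.5 per Mb in replicate 2, a ratio of 0.998. In the combined list this was a net of opposite stretches. Counted from the distal end, it stood at -49.1 regions against the other arms' density at 6 Mb and at 4.61 at 11 Mb. Replicates 1 and 2 stood at -3.09 and -5.27 regions at 6 Mb. Between 11 and 18 Mb the density fell to 56.3, 20.9 and 27.9 per Mb in the combined, replicate 1 and replicate 2 lists, which are 0.688, 0.556 and 0.586 times the density of the other arms. The borders at 11 and 18 Mb were set after the profile had been seen, and the replicate lists are not independent of that choice. Over the whole arm the combined list differed by -177.7 regions from the number at the other arms' density, and the part from 11 to 18 Mb alone by -179.0 regions. In replicate 1 this part differed by -116.6 regions and the arm by -137.7, and in replicate 2 by -137.8 and -163.5. The last part, from 18 Mb to the bound, stood near the other arms in the combined list with a ratio of 0.990 and below them in replicates 1 and 2, with ratios of 0.857 and 0.870.

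**Figure D1:**
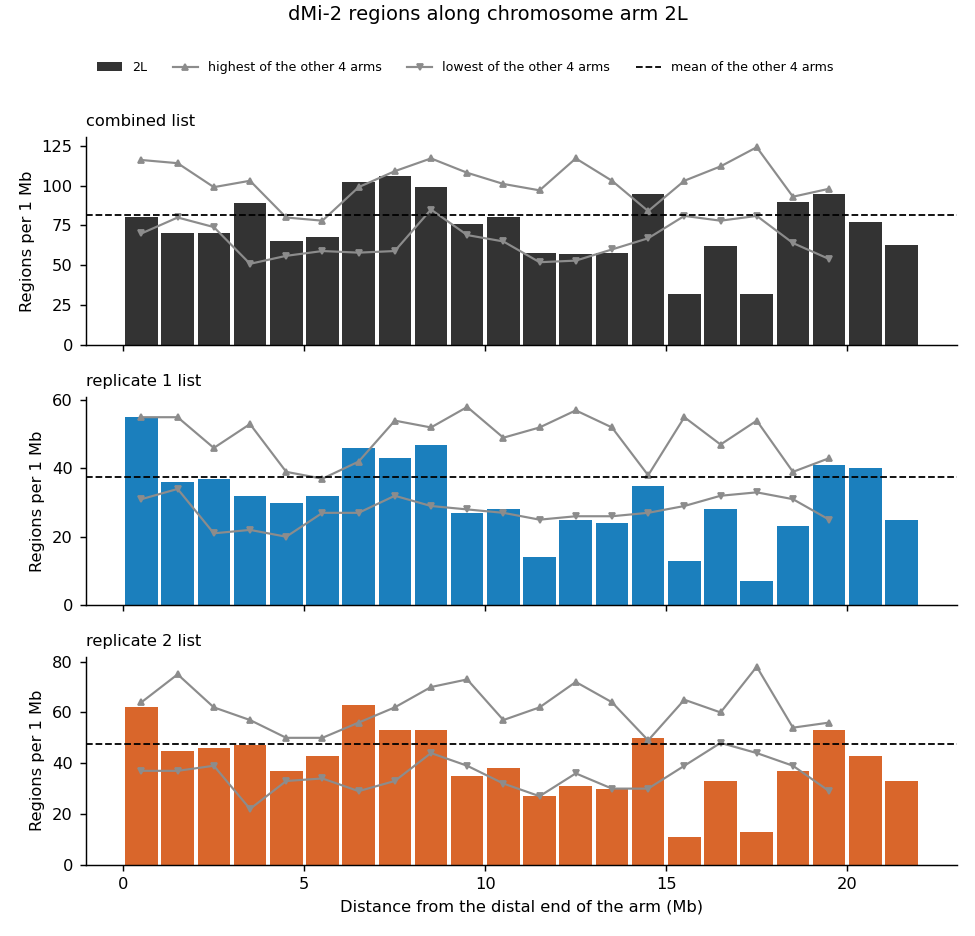
Number of dMi-2 regions in bins of 1 Mb along 2L (bars), by list, against distance from the distal end in Mb. Grey lines join the highest and lowest counts of the other 4 long arms at the same distance from their own distal ends, drawn where all 4 have a bin, and the dashed line is the mean density of those arms. The bins at 15 to 16 and 17 to 18 Mb lie below the lowest of the other arms in each list.

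Bins of 1 Mb showed how uneven the middle of the arm was. Of the 22 full bins of 2L, 15 lay below the mean density of the other arms in the combined list, against 44 of 90 bins on those arms (52.7% of the 112 bins of the 5 long arms). The 3 fullest bins lay next to each other, with 102, 106 and 99 regions at 6 to 7, 7 to 8 and 8 to 9 Mb. The bins at 1 to 2 and 2 to 3 Mb held 70 each, below the other arms' lowest of 80 and 74 there. In the replicates these bins lay within the other arms' range. The 3 emptiest lay in the middle part, with 57 regions at 12 to 13 Mb and 32 regions at both 15 to 16 and 17 to 18 Mb. No bin of the other arms was as low as 32, their lowest holding 40 regions. Yet the bin at 14 to 15 Mb, between them, held 95 regions and lay above the other arms' bins at that distance, which held 67 to 84. In replicate 1 it lay within their range, with 35 against 27 to 38, and in replicate 2 just above it, with 50 against 30 to 49. A well-filled bin thus lay among sparser bins within the 7 Mb. In replicate 1 that bin stayed below the mean of the other arms, at a ratio of 0.933.

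The replicates had their 2 lowest counts in the same bins as the combined list. The bin at 15 to 16 Mb held 13 regions in replicate 1 and 11 in replicate 2, and the bin at 17 to 18 Mb held 7 and 13, against a lowest bin of 14 and 22 on the other arms. Across the 22 bins, Spearman's rho between the replicate counts was 0.942 and Pearson's r was 0.948, a description over bins that share the 2 libraries. Replicate 2 had more regions in 21 of the 22 bins, with 15 to 16 Mb as the exception, and the ratio of replicate 2 to replicate 1 ran from 0.846 to 1.93 around a median of 1.27. The first bin, at the telomere end, ranked high in both replicates with 55 and 62 regions, against 37.5 and 47.5 expected at the other arms' density, while the combined list held 80 there, against 81.9. The bin at 18 to 19 Mb also differed between the lists, with 90 regions in the combined list, above the mean of the other arms, but 23 in replicate 1 and 37 in replicate 2, below the 31 and 39 of the lowest other arm at that distance. The first bin was also the most covered bin of 2L in each list, at 13.7% in replicate 1, 18.4% in replicate 2 and 27.5% in the combined list.

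**Figure D2:**
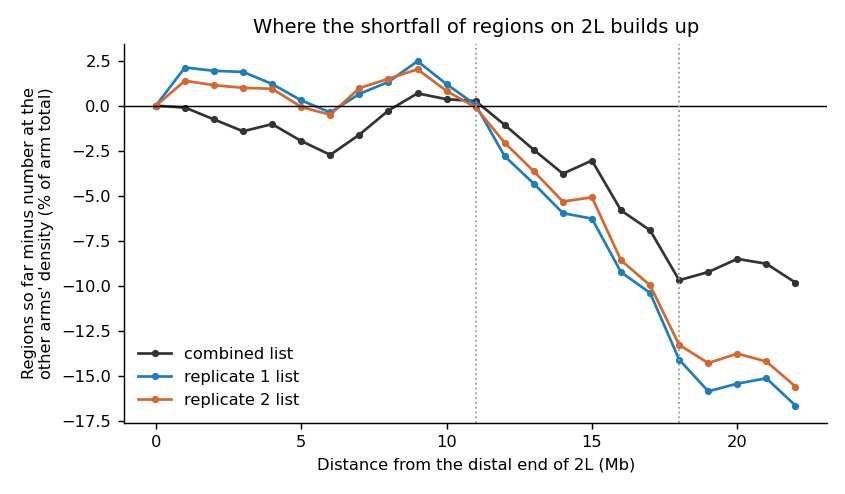
Running difference between the number of dMi-2 regions found from the distal end of 2L and the number at the mean density of the other 4 long arms, as a percentage of the number at that density over the whole arm, for each list. The lines lie within 0.3% of 0 at 11 Mb and then fall, to -9.68% in the combined list, -14.1% in replicate 1 and -13.3% in replicate 2 at 18 Mb (dotted lines mark 11 and 18 Mb).

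The low density went with a larger share of empty sequence. Of the 440 windows of 50 kb on 2L, 74 held no combined-list sequence (16.8%, 95% exact binomial interval 13.4 to 20.6, counting error only), against 220 of 1838 windows on the other arms (12.0%, interval 10.5 to 13.5). The share over the 5 long arms together was 12.9%. In replicate 1, 154 windows of 2L were empty (35.0%), against 27.8% on the other arms (29.2% over the 5 arms), and in replicate 2, 120 were empty (27.3%), against 23.8% (24.5% over the 5 arms). The replicate 2 interval for 2L was 23.2 to 31.7, and the single other arms ran from 19.4% on 2R to 26.4% on 3R. Windows that held sequence had 4.44 regions on average on 2L and 4.65 on the other arms in the combined list, 2.41 and 2.60 in replicate 1, and 2.76 and 3.12 in replicate 2. The replicates marked largely the same windows of 2L: 278 held sequence of both, 112 were empty in both, 42 were empty in replicate 1 alone and 8 in replicate 2 alone. None of the 74 windows empty in the combined list held sequence of a replicate. That was nearly fixed in advance, since 687 of 688 replicate 1 regions and 880 of 883 replicate 2 regions of 2L overlapped a combined-list region. It is thus no separate support for these empty windows.

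In the part from 11 to 18 Mb, set after its low counts had been seen, empty windows were more frequent still. They are thus no separate support for the shortfall there. There, 35 of 140 windows were empty in the combined list (25%), against 28 of 220 in the distal 11 Mb (12.7%) and 11 of 80 in the last part (13.8%). In replicate 1 the shares were 48.6%, 28.2% and 30.0% for the middle, distal and last parts, and in replicate 2 they were 40.7%, 18.6% and 27.5%. The filled windows of the middle part also held fewer regions, with 3.75 per window in the combined list, against 4.71 in both other parts.

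Gaps of 100 kb or more between consecutive regions were more frequent on 2L than on each other arm. The combined list had 33 such gaps on 2L, or 1.5 per Mb, which took up 21.5% of the arm. The other arms had 12 on 2R, 19 on 3L, 22 on 3R and 18 on X, or 0.772 per Mb together, taking up 7.97% to 12.4% of each arm. In replicate 1 such gaps took up 42.6% of 2L, against 23.4% to 34.1% of the other arms, and in replicate 2 they took up 33.4%, against 19.2% to 30.5%. In replicate 2 such gaps were nearly as frequent on X and 3R, with 1.91 and 1.90 per Mb against 2.00 on 2L. Outside these gaps the density of 2L was close to that of the other arms, with 94.0 against 92.0 regions per Mb in the combined list, 54.5 against 52.8 in replicate 1 and 60.2 against 64.3 in replicate 2. Leaving the gaps out removes empty sequence by construction, and a larger share of it on 2L. These densities therefore do not show that the shortfall lies in the gaps alone. Of the 33 gaps, 18 lay between 11 and 18 Mb, the part set after the profile had been seen, and summed to 2.70 of 4.74 Mb. The longest gap of the 5 arms lay outside 2L in each list. It measured 317.8 kb on 3R in the combined list, and 528.3 and 560.2 kb on 2R in replicates 1 and 2.

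**Figure D3:**
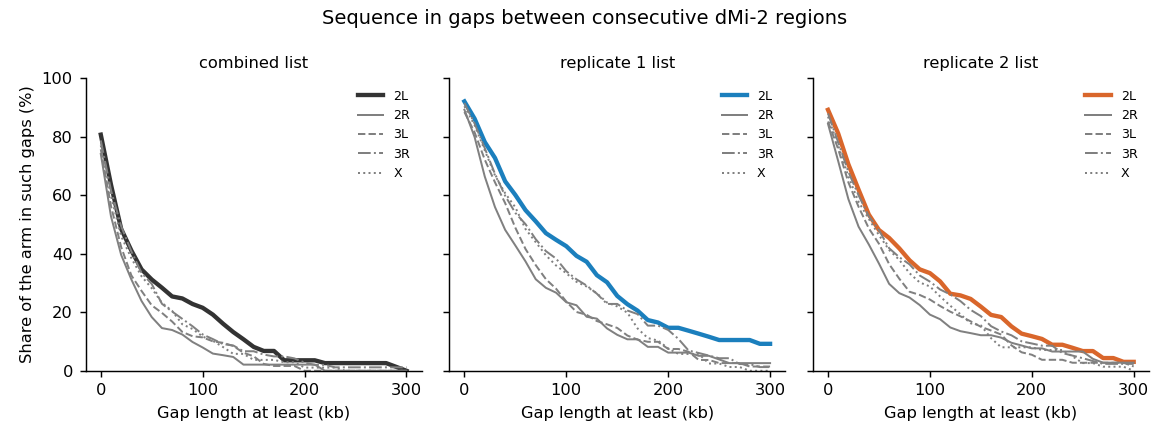
Share of each arm (%) that lies in gaps between consecutive dMi-2 regions of at least the length on the x axis (kb), by list, for 2L (thick line) and the other 4 long arms (grey lines). At 100 kb the line of 2L stands at 21.5%, 42.6% and 33.4% in the combined, replicate 1 and replicate 2 lists, above each of the other arms.

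The longest empty stretches of the combined list were also nearly empty in the replicate lists. This follows largely from how the lists nest, since 687 of 688 replicate 1 regions and 880 of 883 replicate 2 regions overlapped a combined-list region. It is thus no separate support for the gaps. The longest gap of the combined list ran from 16910823 to 17204313 (293.5 kb), where 1 region of replicate 2 reached in at the distal end. In replicate 2 a gap from 16910956 to 17242698 (331.7 kb) and in replicate 1 a gap from 16882360 to 17380265 (497.9 kb, the longest of that list) covered most of it. The second ran from 11518839 to 11804299 (285.5 kb) and recurred at 11518583 to 11804270 in replicate 1 and at 11518675 to 11804950 in replicate 2, with ends that differed by less than 1 kb. The third ran from 15957087 to 16168127 (211.0 kb) and lay inside gaps of 339.5 kb in replicate 1 and 340.7 kb in replicate 2, the longest of the replicate 2 list. A narrow combined-list region of 1001 bp with no overlap in either replicate marked its distal end.

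The next 7 gaps spread over the rest of the arm. They lay at 4615511 to 4792795 (177.3 kb), 17785797 to 17962349 (176.6 kb), 5548533 to 5723923 (175.4 kb) and 1231317 to 1404709 (173.4 kb). The remaining 3 were at 17964511 to 18119219 (154.7 kb), 21398699 to 21551249 (152.6 kb) and 9271841 to 9420451 (148.6 kb). The gaps that ended at 17962349 and began at 17964511 were parted by 2.16 kb, so nearly all sequence from 17785797 to 18119219 was empty. Of the 10 longest gaps, 5 began between 11 and 18 Mb, 4 in the distal 11 Mb and 1 beyond 18 Mb. Within these 10 gaps the replicate 1 list held 1 region and the replicate 2 list held 1 in each of 3 gaps, counting regions that reach in from an end.

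Dense stretches were found at both ends of the arm and also within the sparse middle. Among windows of 100 kb, the most covered was 1600001 to 1700000, where combined-list regions took up 56.0%, with replicate 1 at 30.0% and replicate 2 at 39.4%. Next came 400001 to 500000 (51.9%, and 33.2% and 36.1% in replicates 1 and 2), and these windows were the first pair in both replicates as well. The third, 14500001 to 14600000 (50.6%), held the most regions of the 10 with 23, but ranked 17 and 34 of 220 in the replicates. Its neighbour 14400001 to 14500000 was seventh with 46.5%, and ranked 34 and 20 in the replicates.

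The other dense windows were 19100001 to 19200000 (47.4%), 20800001 to 20900000 (47.4%), 5000001 to 5100000 (47.2%), 200001 to 300000 (45.0%), 12000001 to 12100000 (44.1%) and 800001 to 900000 (44.0%). The window at 20.8 Mb ranked 3 in both replicates, and that at 12.0 Mb ranked 7 and 4. Windows of 50 kb brought other places forward: 6450001 to 6500000 was first with 65.4%, and 16700001 to 16750000 and 16250001 to 16300000, with 62.8% and 61.7%, lay on the arm between the longest gap and the third longest.

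The median distance between neighbouring regions was longer on 2L than on the other arms together in each list. The median distance from a region to the next was 3967 bp in the combined list, against 3427 bp on the other arms, and the same order held in replicate 1 (11046 and 10070 bp) and in replicate 2 (8798 and 6775 bp). On 3L alone it was nearer to 2L, at 3891, 10753.5 and 7466.5 bp in the combined, replicate 1 and replicate 2 lists. A next region within 5 kb was found for 55.6% of the distances on 2L, against 59.6% on the other arms in the combined list, for 31.6% against 31.9% in replicate 1 and for 36.8% against 41.9% in replicate 2. In replicate 1 the share on 3L, 30.8%, was lower than on 2L. The upper quartile was 10811 bp on 2L and 9200.5 bp on the other arms in the combined list. Within 2L the median distance differed little between parts in the combined list, at 3879, 4173 and 4059 bp for the distal, middle and last part, whereas the density differed between 82.3 and 56.3 per Mb. In the replicate lists the middle part had the longest median distance, at 13083 bp against 9626 and 11731.5 bp in replicate 1 and at 10949.5 bp against 7977 and 8944 bp in replicate 2.

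With regions less than 5 kb apart joined into chains, the 1624 combined-list regions formed 721 chains, of which 371 were single regions. Single regions made up 22.8% of the regions of 2L in the combined list, against 16.1% to 21.04% on the other 4 arms. In replicate 2 they made up 42.0%, against 31.8% to 37.7%, but in replicate 1 the 47.4% of 2L lay inside the range of the other arms, 46.7% to 48.3%. Chains of 5 or more held 32.6% of the combined-list regions of 2L, against 32.9% to 39.97% on the other arms. In the replicates 2L lay inside their range, with 5.23% against 4.20% to 7.05% in replicate 1 and 12.3% against 9.11% to 15.1% in replicate 2. Long chains thus set 2L apart in neither replicate. The chains with most regions had 12 members, at 19397520 to 19455366 (57.8 kb) and 14527360 to 14563700 (36.3 kb), while the largest on the other arms had 17 to 24. In the replicates the largest chains were of like size, with 6 regions on 2L against 6 to 9 in replicate 1 and 8 against 7 to 9 in replicate 2. The longest chain of 2L by span was at 1609706 to 1678592 (68.9 kb, 11 regions), inside the most covered window. A chain with most regions stood at the same place in both replicates, at 7025919 to 7057832 with 6 regions in replicate 1 and 7023199 to 7057797 with 8 regions in replicate 2, where a chain at 6061671 to 6091869 also had 8.

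Widths on 2L were close to those elsewhere except for the broadest regions. The median was 2022 bp in the combined list, against 2065 bp on the other arms. Replicate 1 had medians of 1944.5 and 1979 bp on 2L and the other arms, and replicate 2 had 2079 and 2109 bp. Regions of 7 kb or more numbered 42 of 1624 (2.59%), against 4.25% on the other arms and 3.89% in the whole list. Those of 10 kb or more numbered 10 (0.616%), against 1.19% on the other arms and 1.07% in the whole list. Regions of 7 kb or more were 1.16% of 2L regions, against 0.985% on the other arms in replicate 1, and 1.93% against 2.24% in replicate 2, so the replicate lists did not share one direction. All 42 broad regions of the combined list overlapped both replicates. Of all regions of 5000 bp or more, 95.5% did so on 2L and 94.4% on the other arms. Of the 42, 18 lay in the first 5 Mb, which is 22.7% of the arm. That stretch held 23.0% of the regions of 2L and 27.5% of the 506 regions in both replicates.

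The widest region of 2L ran from 20791366 to 20813092 (21.7 kb, score 0.514) and was made of several pieces in the replicates, with 4 regions covering 44.7% of it in replicate 1 and 5 regions covering 83.6% in replicate 2. The next were 1642058 to 1659590 (17.5 kb, score 0.822), 11997172 to 12014478 (17.3 kb, score 1.19) and 842390 to 859472 (17.1 kb, score 0.617). Each of these was held by 4 regions or fewer in each replicate. Further down were 19007978 to 19022666 (14.7 kb), 2191876 to 2204562 (12.7 kb), 5296234 to 5308298 (12.1 kb), 19570324 to 19581218 (10.9 kb), 242618 to 253464 (10.8 kb) and 2171476 to 2181560 (10.1 kb). Over these 10, replicate 1 covered 40.1% to 96.6% of the region and replicate 2 covered 66.0% to 96.3%, and replicate 2 covered the larger share in 6 of the 10. Of the 10 widest, 3 were also among the 20 strongest regions below.

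Replicate support on 2L was near that of the whole series. Of the 1624 combined-list regions, 506 overlapped both replicates by at least 1 bp (31.2%, exact binomial interval 28.9 to 33.5), against 32.2% on the other arms and 31.8% in the whole list. Another 320 overlapped replicate 2 alone, 108 replicate 1 alone and 690 neither (42.5%, interval 40.1 to 44.9), against 39.8% in neither on the other arms and 40.6% in the whole list. Of the replicate 1 regions of 2L, 565 of 688 were found in replicate 2 (82.1%, interval 79.1 to 84.9), against 79.6% on the other arms and 80.0% in the whole list. Of the replicate 2 regions, 539 of 883 were found in replicate 1 (61.0%, interval 57.7 to 64.3), against 60.5% on the other arms and 60.5% in the whole list. Each of these shares lay within 3 percentage points of that of the whole list.

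**Figure D4:**
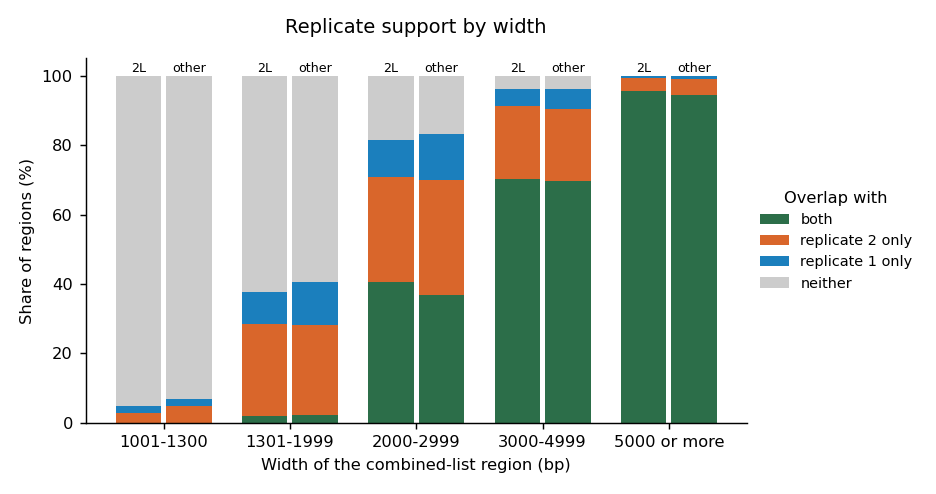
Share (%) of combined-list dMi-2 regions that overlap both, 1 or neither replicate list, by width of the region in bp, with 2L left of the other 4 long arms in each pair of bars. Regions in both replicates rise from 0% to 95.5% with width on 2L and from 0% to 94.4% on the other arms.

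Support followed width. None of the 327 narrowest regions of 2L (1001 bp to under 1301 bp) overlapped both replicates, and 311 of them overlapped neither. The share in both was 1.90% from 1301 bp, 40.7% from 2000 bp, 70.4% from 3000 bp and 95.5% from 5000 bp upwards, against 2.30%, 36.9%, 69.8% and 94.4% on the other arms. The smallest region of the replicate lists is 1301 bp wide, and the part of width itself in meeting an overlap of 1 bp was not tested. In terms of sequence, the 506 regions in both made up 50.9% of the combined-list sequence on 2L and the 690 regions in neither made up 24.7%. By position, 33.3% of the regions of the distal 11 Mb, 26.9% of those from 11 to 18 Mb and 30.5% of those beyond were in both replicates. The shares in neither were 38.7%, 46.7% and 48.0%.

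Between the replicates, matched regions had close centres but replicate 2 regions were the wider ones. The lists formed 581 overlapping pairs on 2L, with a median distance between centres of 308 bp and a median of 70.9% of their joint length in common. The replicate 2 region was wider in 425 pairs (73.1%), by a median of 369 bp over all pairs. Sequence covered in both came to 1.21 Mb, or 77.8% of what replicate 1 covered and 54.4% of what replicate 2 covered. Sharing was most frequent at high scores: in the top 20% of scores 92.0% of replicate 1 regions and 93.2% of replicate 2 regions were shared, against 75.4% and 44.6% in the bottom 20%. The other arms were similar, with 91.9% and 89.6% in the top 20% and 71.3% and 41.7% in the bottom 20%. Across the 581 pairs Spearman's rho of the scores was 0.448 and Pearson's r was 0.591, a description across regions that share 2 libraries.

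**Figure D5:**
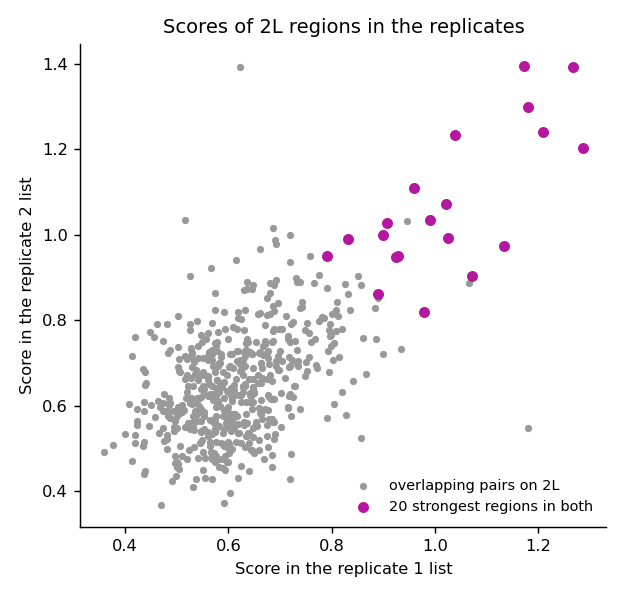
Scores of overlapping dMi-2 regions of 2L in the replicate 1 list (x axis) and the replicate 2 list (y axis), on the authors' scale. Grey points are the 581 overlapping pairs, and purple points are the highest-scoring replicate regions in each of the 20 strongest combined-list regions, which run from 0.791 to 1.29 in replicate 1 and from 0.819 to 1.40 in replicate 2.

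A larger share of the strongest regions found in both replicates stood in the first 5 Mb of the arm than of all such regions. The cut at 5 Mb was not in the rules set beforehand. With 20 regions picked by their ranks in the replicate lists instead, 9 lay there. Among the 20 combined-list regions in both replicates with the highest scores, 11 lay in the first 5 Mb (55%), which held 27.5% of the 506 regions in both and 23.0% of the regions of 2L. Another 4 lay between 5 and 11 Mb, making 15 in the distal 11 Mb, 3 between 11 and 18 Mb and 2 beyond. The distal 11 Mb also held most of the 506 regions in both and most of the regions of 2L. Of these parts, only the first 5 Mb held a larger share of the 20 than of the 506. The widths of the 20 ran from 2.94 to 17.5 kb with a median of 6.36 kb. The median over all regions in both was 3527 bp, and 2 of the 20 were narrower than that. In replicate 1, 16 of the 20 held a region among the first 20 of 2L, and in replicate 2, 14 did. Scores and widths went together, with a Spearman rho across regions of 0.461 in the combined list (the 506 regions in both), 0.607 in replicate 1 and 0.727 in replicate 2.

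The first was at 477850 to 487166 (9.32 kb), with a score of 1.27 in the combined list, 1.17 in replicate 1 and 1.40 in replicate 2, the highest of 2L in replicate 2. A single region of each replicate covered it, to 97.5% and 95.1%. The second, at 11997172 to 12014478, combined strength with breadth, with scores of 1.19, 1.27 and 1.39 in the combined, replicate 1 and replicate 2 lists, second on 2L in both replicates. It lies 192.9 kb beyond the empty stretch that ends at 11804299. The third, at 14597380 to 14600814, was compact (3.44 kb) and carried the highest score of 2L in replicate 1, 1.29, against rank 6 in replicate 2. It stood at the edge of the dense window at 14.5 Mb.

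The following 3 had scores of 1.11 to 1.14 and lay in the distal 5 Mb. They were at 4809168 to 4813992 (4.83 kb, ranks 3 and 4 on 2L in replicates 1 and 2), 2191876 to 2204562 (12.7 kb, ranks 9 and 5) and 2008170 to 2014276 (6.11 kb, ranks 4 and 3). The region at 4.8 Mb lies 16.4 kb beyond the fourth longest gap, which ends at 4792795. With 2159986 to 2165086 (score 0.849), 3 of the 20 lay between 2008170 and 2204562, where 2171476 to 2181560, one of the widest regions, lay as well.

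The remaining ones scored from 0.820 to 0.996. Those ranked 7 to 10 were at 20819878 to 20826830 (0.996), 9565806 to 9572562 (0.984), 8682314 to 8686636 (0.961) and 14020576 to 14027452 (0.899). The first of these began 6.79 kb beyond the widest region of the arm. Those ranked 11 to 15 were at 2746390 to 2756292, 7975072 to 7978010, 3802328 to 3806966, 2159986 to 2165086 and 219898 to 226052. The last 5 were at 4330518 to 4336908, 3168108 to 3174444, 20081924 to 20089642, 1642058 to 1659590 and 8540148 to 8545324. Over the 20, replicate 1 covered 62.5% to 99.7% of the region and replicate 2 covered 79.9% to 97.9%. The replicates ranked some of them apart: 3802328 to 3806966 was 13 on 2L in replicate 1 and 64 in replicate 2, and 2159986 to 2165086 was 55 and 23.

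Some strong regions of 1 replicate had no partner in the other. In replicate 1 the highest was at 7731407 to 7732951 (score 0.905, rank 20 on 2L), 2.97 kb from the nearest replicate 2 region. The next were at 9123139 to 9124773 (0.776), 6692508 to 6693897 (0.735), 20950629 to 20952317 (0.731) and 8293686 to 8295072 (0.726), and the first and last of these 4 missed a replicate 2 region by 0.121 and 0.257 kb. In replicate 2 they were at 1708896 to 1711523 (0.843, rank 51 on 2L), 9575100 to 9577517 (0.813), 14517271 to 14518879 (0.778), 2235030 to 2238574 (0.768) and 3831288 to 3833426 (0.763). Their distances to the nearest replicate 1 region ran from 0.981 to 17.6 kb. Each of these 10 regions overlapped the combined list, as did 99.9% of all replicate 1 regions and 99.7% of all replicate 2 regions of 2L.

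The highest scores of the combined list on 2L belonged to narrow regions outside both replicates. The 4 regions above the first of the 20 were at 21603738 to 21604738 (score 3.403), 15956086 to 15957086 and 21551250 to 21552250 (3.21 each) and 17727778 to 17728824 (1.40), and the next such region, at 12861512 to 12862542, scored 1.07. They were 1001 to 1047 bp wide, below the smallest width of the replicate lists. The regions at 15956086 and 21551250 stood at the very edge of the third and ninth longest gaps. The region scores of 2L as a whole had a median of 0.423, against 0.447 on the other arms and 0.433 on 2R, 3L and 3R, in the combined list.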

How the data were processed

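ChIP and input libraries were made from formaldehyde-crosslinked embryos, per the labels' protocols. The submitters' processing notes name Bowtie 0.12.7. The region caller and its thresholds are not given in the labels, notes or headers. The authors deposited 3 region lists, each region with a score whose scale the file headers do not name. Coordinates are FlyBase release 5, per the file headers. How the combined list was derived is not stated, and no read counts accompany the lists, so depth is unknown.

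Regions were counted in bins and windows by midpoint or by covered sequence. Other arms were cut by 1 Mb at the centromere as 2L was, at coordinate 1 for 2R and 3R. Gaps are distances between consecutive regions of an arm. Overlap of 1 bp was counted, checked with bedtools 2.31.1. The functions were tested on simulated data. Intervals are 95% exact binomial (Clopper-Pearson). Scores are the authors' own, used within a list. Named regions followed a rule (the 20 strongest in both replicates, the 10 widest, the 10 longest gaps, the 10 most covered windows of 100 kb, the 5 top unshared ones, and the 3 fullest and 3 emptiest bins); the windows of 50 kb and the chains named were added after their values were seen. Members, lists and rules were chosen with earlier results of these data known. The cut at 5 Mb was in none of these rules. No chance test was made. Alternatives changed the overlap rule, window size, width and score filters, merging, the arms set beside 2L and the replicate left out. An end coordinate written with an exponent was read as its full number. Genes and sequences are not given, because the gene table follows release 6 and no release 5 genome was used here. Python 3.11.15, numpy 2.4.6, pandas 2.3.3, scipy 1.17.1 and matplotlib 3.10.9 were used.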

Additional observations from a re-analysis of the deposited data

Results flagged for a closer look

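The stretch left out of the report, the last 1 Mb of 2L next to the centromere, also held called regions. The combined list had 15 regions there, of which 1 overlapped both replicates and 10 neither, replicate 1 had 2 regions and replicate 2 had 4. The first of them stood at the same place in each list, at 22017860 to 22020564 in the combined list, 22017827 to 22019831 in replicate 1 and 22018029 to 22020583 in replicate 2. These are called regions only, and no control level was measured for them. The density of 15.0 regions per Mb in the combined list compares with 81.0 per Mb between 18 Mb and the bound. The scaffold 2LHet, the heterochromatic sequence assigned to the arm, held 2 combined-list regions and 0 in either replicate.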

How the results depend on the processing

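With 1 replicate left out, the other replicate's own list was used as deposited, so those values describe the replicate lists and are not a separate check. The density ratio of 2L to the other arms stayed below 1 in 9 of 10 alternatives. It was 0.833 to 0.844 with 1 replicate left out, 0.892 over whole arms, 0.845 by covered length, 0.938 with regions closer than 1000 bp merged, 0.900 without regions narrower than 1301 bp and 0.707 for regions at or above the median score. Some alternatives were added once the data were known: without 2R it was 0.931, for regions at or above the median score without X it was 0.806, and with gaps of 100 kb or more left out of every arm it turned to 1.02, since that setting removes empty sequence by construction. In the part from 11 to 18 Mb that last setting gave 0.962, in place of 0.688, and leaving out 2R gave 0.710 there, 1.04 in the distal 11 Mb and 1.02 beyond 18 Mb. Windows of 1 Mb at steps of 100 kb, also added, had a minimum of 22 regions on 2L (15100001 to 16100000), against 27 to 36 on the other arms. The share of empty windows on 2L was 27.3% to 35.0% with 1 replicate left out, against 23.8% to 27.8% on the other arms. It was 27.8% against 23.0% in 25-kb windows and 7.73% against 3.70% in 100-kb windows. For regions at or above the median score it was 31.8% on 2L, and no share was taken for the other arms. Gaps of 100 kb or more numbered 44 to 54 with 1 replicate left out. The median width was 1944.5 to 2079 bp with 1 replicate left out, 2415 bp when merged, 2385 bp without regions narrower than 1301 bp and 3021 bp at or above the median score. The median distance was 8798 to 11046 bp with 1 replicate left out, 6022 bp when merged, 12515 bp at or above the median score and 6831 bp between midpoints. Regions in both replicates made up 21.2% under a reciprocal overlap of 50%, 11.5% with centres within 250 bp, 39.0% without regions narrower than 1301 bp and 63.3% of those at or above the median score. The other arms had 20.1%, 9.82%, 40.2% and 55.8%. Spearman's rho of the scores was 0.5501 and 0.577 with the first 2 of these definitions. Ranked by the replicate lists, 17 of the 20 strongest regions stayed, and 9 of the 20 lay in the first 5 Mb. The cause of these shifts was not tested. No paired analysis was possible because the inputs have no lists of their own, so no groups compared share replicate numbers. Without read counts, a stretch with no region cannot be told apart from one in which regions could not be called.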

Other observations

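Among the 5 highest-scoring combined-list regions of 2L that overlapped neither replicate, scores recurred. Those at 15956086 and 21551250 had the same score of 3.21, and those at 21603738 and 17727778 differed by exactly 2 (3.403 and 1.403). The highest-scoring such region, at 21603738 to 21604738, ranked 2 in the whole combined list.

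The dense window at 14500001 to 14600000 held more regions than any other of the 10 most covered windows of 100 kb (23), while the windows ranked 1 and 2 by coverage held 13 each. Its coverage in the replicates was 18.8% and 19.8%, against 30.0% and 39.4% in the first window.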
